A study of Mus musculus with 16 samples.

Results

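The chemokine genes are described here in an induced gene-deletion time course of immortalized mouse embryonic fibroblasts. The set holds every gene whose mouse symbol starts with Ccl or Cxcl and a number, and it also takes in Cx3cl1, Il6, Lif, Csf1 and Il1rn. There were 43 such genes among 24485 gene IDs, made up of 25 Ccl genes, 13 Cxcl genes and the 5 named additions. Of the 43 genes, 16 reached 1 FPKM in at least 3 of 16 libraries, and these are described in detail. FPKM stands for fragments per kilobase of gene length, scaled here to the total of reads in genes of a library. The 16 genes are 5 Ccl genes, 7 Cxcl genes, Cx3cl1, Lif, Csf1 and Il1rn.

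Both cell lines carry R26M2rtTA/+ (a reverse tetracycline transactivator at 1 copy of the Rosa26 locus) and TetOcre (a Cre recombinase under tetracycline operator control), and both were given doxycycline at 1 µg/mL. The exp line has the genotype R26M2rtTA/+;TetOcre;Sdhcfl/fl and the ctl line R26M2rtTA/+;TetOcre;Sdhcfl/wt, so Cre and a floxed Sdhc allele are present in the controls too. The Sdhc product anchors succinate dehydrogenase in the inner mitochondrial membrane. RNA was taken at days 0, 5, 9, 12, 16 and 20, with 3 biological replicates of each line at day 16 and 1 library of each line at every other day. Each genotype is 1 line, so line and genotype cannot be told apart, and p-values measure the spread between libraries of these 2 lines. The lines also differed in sex-linked transcripts, which cannot be told apart from genotype either: Xist, made from the inactive X chromosome, was 0.0709 to 0.283 FPKM in exp and 51.1 to 92.5 in ctl, and the Y-linked Ddx3y was 16.3 to 26.1 FPKM in exp and 0.0149 to 0.0761 in ctl.

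Chemokines are small secreted proteins that direct the movement of leukocytes through G protein-coupled receptors, and they are named by the spacing of their first cysteines. Fibroblasts are a known source of inflammatory chemokines, which are switched on by cytokines and by sensing of microbial products through NF-kappaB and interferon-regulated factors, and of homeostatic chemokines such as Cxcl12, which are made without stimulation. Lif and Il6 signal through the shared receptor chain gp130 (Il6st), Csf1 is the growth factor of macrophages, and Il1rn encodes the antagonist of the interleukin-1 receptor.

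Promoter sequences of 4 genes are shown because they frame a contrast in level between neighbouring genes. Cxcl1, Cxcl2 and Cxcl3 lie in the same gene cluster and share a run of 10 bases, GGGAATTTCC, that starts 71, 97 and 73 bases before their start sites, yet Cxcl1 reached 48.7 FPKM in these cells while Cxcl2 and Cxcl3 did not exceed 0.235 and 0.208. Cxcl10 is shown because its window holds an NF-kappaB type motif and an interferon-response type motif. The sequences are the 250 bases before each start site, 5′ to 3′ on the gene's strand, from RefSeq on GRCm38.p6. They are chr5:90890995-90891244 (plus strand) for Cxcl1, chr5:90903649-90903898 (plus) for Cxcl2, chr5:90785851-90786100 (plus) for Cxcl3 and chr5:92348890-92349139 (minus) for Cxcl10. Capitals mark matches on either strand to GGG, any 3 bases and TTCC (an NF-kappaB type motif) or to GAAA, any 2 bases and GAAA (an interferon-response type motif), with overlapping matches run together.

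Cxcl1: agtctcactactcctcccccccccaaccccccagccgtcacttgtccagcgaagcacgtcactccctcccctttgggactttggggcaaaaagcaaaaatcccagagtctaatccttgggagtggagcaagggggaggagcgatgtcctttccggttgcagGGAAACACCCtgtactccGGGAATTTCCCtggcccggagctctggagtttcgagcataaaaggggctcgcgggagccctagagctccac
Cxcl2: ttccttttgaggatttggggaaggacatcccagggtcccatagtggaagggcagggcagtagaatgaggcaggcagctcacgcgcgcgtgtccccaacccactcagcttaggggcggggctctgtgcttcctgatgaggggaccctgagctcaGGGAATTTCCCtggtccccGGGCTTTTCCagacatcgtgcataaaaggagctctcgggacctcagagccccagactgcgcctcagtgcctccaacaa
Cxcl3: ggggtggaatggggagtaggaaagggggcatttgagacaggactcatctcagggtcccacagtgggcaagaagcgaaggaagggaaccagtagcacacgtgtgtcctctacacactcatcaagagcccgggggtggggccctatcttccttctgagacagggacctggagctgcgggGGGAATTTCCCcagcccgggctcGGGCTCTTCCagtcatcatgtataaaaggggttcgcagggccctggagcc
Cxcl10: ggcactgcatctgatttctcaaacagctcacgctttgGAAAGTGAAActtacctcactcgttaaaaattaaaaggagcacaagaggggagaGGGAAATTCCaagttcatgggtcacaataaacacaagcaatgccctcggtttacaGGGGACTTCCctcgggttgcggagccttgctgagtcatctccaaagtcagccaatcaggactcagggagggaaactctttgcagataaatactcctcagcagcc

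A promoter was listed for 31 of the 43 genes, 11 of them among the 16 described. Over windows from 250 bases before to 50 after the start site, the NF-kappaB type motif was found on either strand in 10 of the 31 genes (Ccl1, Ccl9, Ccl20, Csf1, Cxcl1, Cxcl2, Cxcl3, Cxcl10, Il1rn and Il6) and in 6.31% of all 27025 genes with a listed promoter (5.56% of 32851 promoters, since a gene can have several). The interferon-response type motif was found in Cxcl10, Cxcl14 and Ccl19, and in 3.99% of those genes (3.44% of the promoters). Of the 10 genes with the first motif, 4 were among the 16 described, and the other 6 did not reach 1 FPKM. The matches describe letters in a window and were not tested as binding sites.

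Libraries held 18121520 to 42486438 reads in genes, and the 16 described genes held 25 to 41643 reads in a library. Before the results, 1 feature of the libraries has to be stated: at day 16, replicates 2 and 3 stood apart from replicate 1 in both lines. On log2(FPKM + 1) over 12533 genes, the correlation between replicates 2 and 3 was 0.995 in exp and 0.997 in ctl, while that of replicate 1 with each of them was 0.951 and 0.953 (exp) or 0.979 and 0.981 (ctl). How these replicates differ is not stated in the labels. For most described genes whose result turned on them, values by replicate set or fits on part of the replicates are therefore given. Sdhc, as a check of the labels, lay at 26.5 to 87.8 FPKM in exp and 47.5 to 90.5 in ctl, and differed by -0.62 ± 0.12 log2 at day 16, lower in exp (SE; limma, adjusted p = 0.0434). That difference was called in 9 of 16 alternatives. In both lines the highest Sdhc value was that of day 0, 87.8 FPKM in exp and 90.5 in ctl. All 9 fibroblast markers had a mean of 1 FPKM or more. Of 11 macrophage and leukocyte markers only Cd68 and Cd14 reached it, Ptprc was listed at 0 in 15 libraries, and Adgre1 and Cd3e in all 16.

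The 16 genes had mean levels from 1.54 to 107 FPKM. Cxcl12, the homeostatic ligand of CXCR4, had the highest mean over the 16 libraries and Csf1 a mean of 71.5. They were followed by Ccl2 (15.5), Cxcl14 (11.8), Cx3cl1 (10.4), Cxcl10 (10.2), Il1rn (9.95), Cxcl1 (9.35), Cxcl5 (8.57) and Ccl7 (6.74), whose ranges overlapped. Ccl5, Cxcl15, Cxcl16, Lif, Ccl27a and Ccl25 had means of 3.33 FPKM or less.

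**Figure D1:**
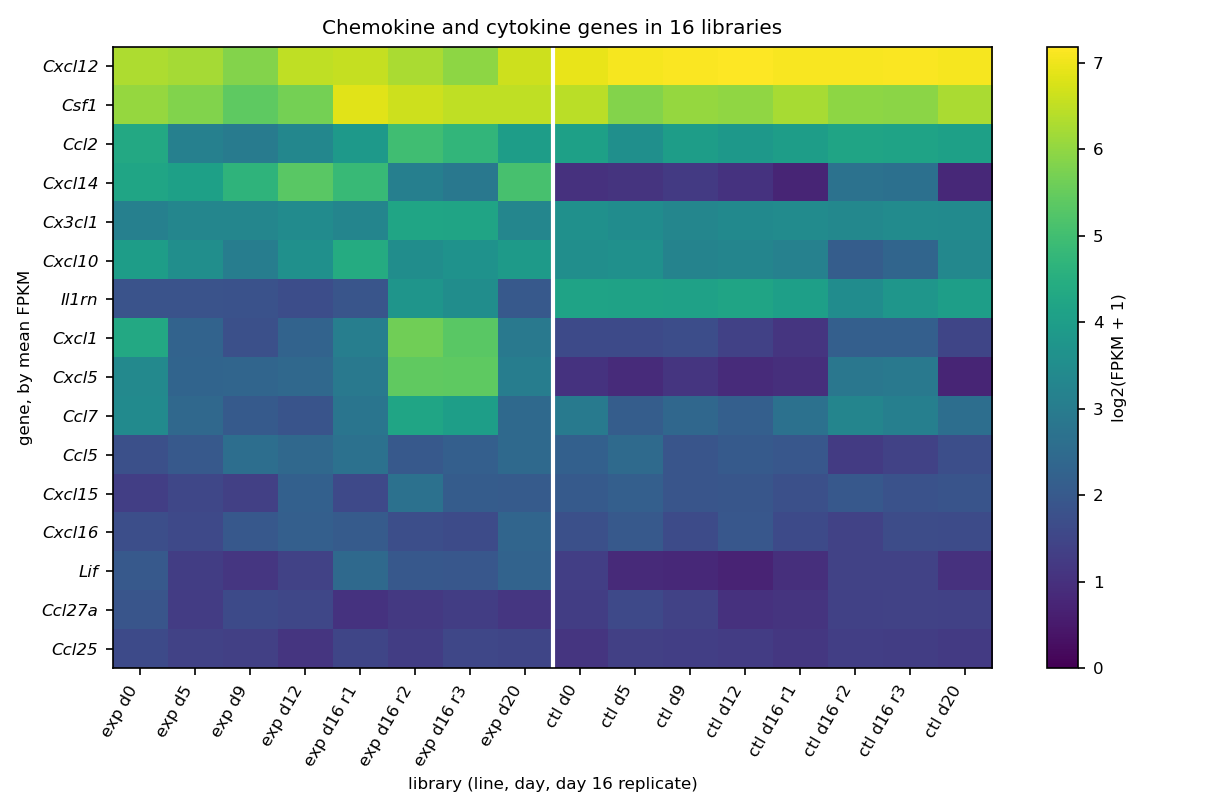
Level of the 16 described genes (rows, by mean FPKM) in each library (columns, exp left and ctl right of the white line), as log2(FPKM + 1) in colour. Cxcl12 and Csf1 are high in every library, Cxcl14 is high in exp and Il1rn in ctl, and Cxcl1 and Cxcl5 are brightest in exp day 16 replicates 2 and 3.

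Over all days the lines differed in 7 of the 16 genes. Cxcl14, Cxcl5, Cxcl1, Lif and Cxcl10 were higher in exp, and Il1rn and Cxcl12 were lower. The fit used all 16 libraries with day as a factor, and a gene was called at a limma adjusted p under 0.05 over all 12559 genes tested. The 7 genes are 43.8% of the 16, beside 35.9% of all genes tested (19.2% higher and 16.7% lower in exp), so the share called was near the background. The median difference of the 16 genes was 0.17 log2, beside 0.01 over all genes tested. The libraries of exp lay wholly outside the range of those of ctl for Cxcl14 (higher) and Cxcl12 (lower), which is 2 of 16 genes, beside 10.2% of all genes tested (5.5% higher and 4.65% lower).

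At day 16 alone, with 3 libraries per line, 2 of the 16 genes were called, beside 6.1% of 12533 genes tested (3.1% higher and 3.01% lower). Csf1 was higher and Cxcl12 lower in exp. The median of the 16 genes was 0.54 log2, beside -0.01 over all genes. With the replicate number as a block, 6 were called, 5 higher and 1 lower, beside 8.16% of all genes tested (1023 of 12533). With replicates 2 and 3 only, an alternative chosen after seeing the data, 11 of the 16 were called, 10 of them higher in exp, beside 34.7% of all genes tested (4326 of 12474, against 765 with all 3 replicates).

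**Figure D2:**
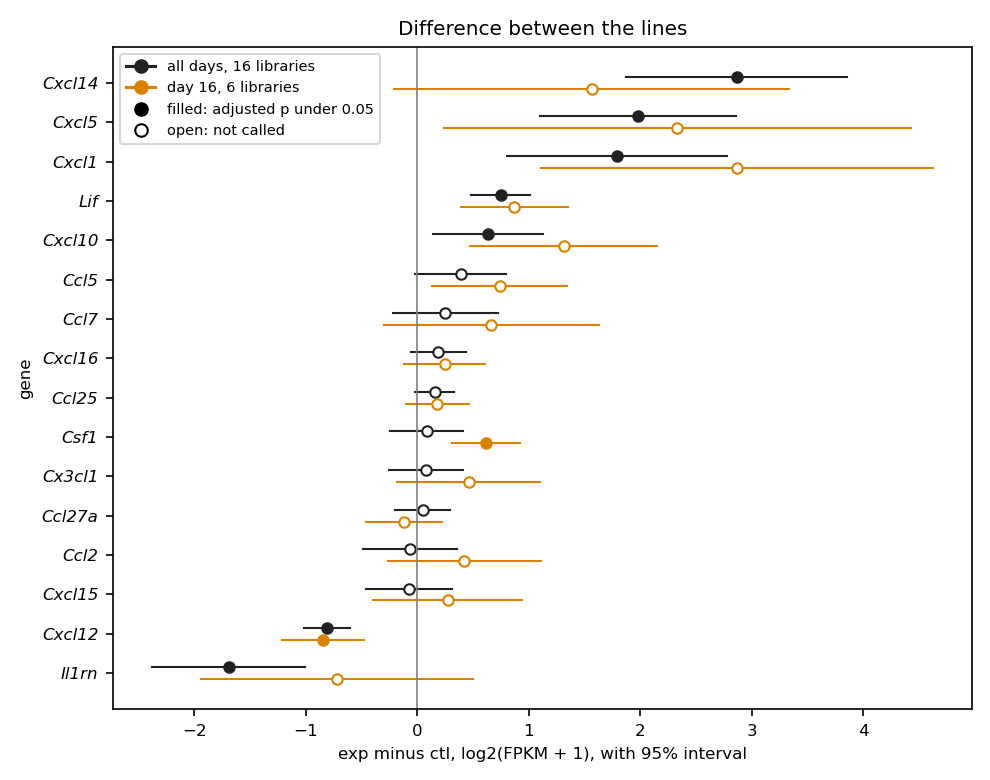
Difference between the lines (exp minus ctl) in log2(FPKM + 1) for each described gene, with 95% intervals, over all days (black) and at day 16 (orange); filled points have an adjusted p under 0.05. Cxcl14, Cxcl5 and Cxcl1 have the largest positive values over all days and Il1rn the lowest, and the day 16 intervals are wider for every gene shown but Csf1.

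Cxcl1 and Cxcl5, neutrophil attractants that act on CXCR2, were higher in exp. Cxcl1 (gene ID 14825) was listed in exp at 19.3 FPKM at day 0, 3.90 at day 5, 2.37 at day 9, 3.88 at day 12, 7.38, 48.7 and 39.6 in day 16 replicates 1, 2 and 3, and 6.45 at day 20. In ctl, in the same order, Cxcl1 was 2.07, 2.08, 2.23, 1.61, 1.15, 3.47, 3.53 and 1.82 FPKM. Exp was above ctl on each of the 6 days, narrowly at day 9, and the highest exp values were those of day 16 replicates 2 and 3 and of day 0.

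Cxcl1 was higher in exp over all days by 1.80 ± 0.45 log2 (SE; limma, adjusted p = 0.00943), and by 1.15 log2 without day 16 (adjusted p = 0.0441). At day 16 its difference was 2.87 ± 0.72 log2 with non-overlapping groups, which limma did not call (adjusted p = 0.0795). It was called in 3 of 16 alternatives: the replicate block (limma, adjusted p = 0.0255), without exp replicate 1 (0.00424) and replicates 2 and 3 only (2.65e-05). Leaving out only exp replicate 1 sets exp replicates 2 and 3 against all 3 ctl replicates. The shift between replicate sets then enters the line difference.

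Cxcl5 (gene ID 20311), in the same gene cluster, was highest in the same libraries. In exp it was 9.45, 3.97, 4.12, 4.42, 6.41, 42.3, 41.0 and 7.16 FPKM in the order of libraries used for Cxcl1. In ctl it was 1.07, 0.835, 1.16, 0.860, 0.952, 6.21, 6.46 and 0.689 FPKM. The high ctl values, again replicates 2 and 3, overlapped with the exp range, while on every day exp was above ctl when libraries of the same replicate number are compared.

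Over all days Cxcl5 was higher in exp by 1.98 ± 0.40 log2 (limma, adjusted p = 0.00267), and by 1.79 log2 without day 16 replicates 2 and 3 (adjusted p = 5.95e-05). The day 16 difference of 2.33 ± 0.86 log2 was not called (limma, adjusted p = 0.183). It was called in 3 of 16 alternatives: the replicate block (limma, adjusted p = 0.00961), without exp replicate 1 (3.18 log2, 0.0339) and replicates 2 and 3 only (2.54 log2, 7.21e-07). Without exp replicate 1 the replicate sets are unequal between the lines. Cxcl15 (gene ID 20309), a chemokine known from lung epithelium, had no called difference. It was 1.51 to 5.44 FPKM in exp and 2.40 to 3.48 in ctl, with a difference of -0.07 ± 0.18 log2 over all days (95% interval -0.46 to 0.31; limma, adjusted p = 0.776).

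These genes are neighbours. On mm9, in the annotation used, Cxcl5 (chr5:91188325-91190651), Cxcl3, Cxcl15 (chr5:91223560-91232093), Cxcl1 (chr5:91320267-91322141) and Cxcl2 follow each other within 147 kb. Cxcl2 was listed at 0 in 7 libraries and Cxcl3 in 8, with highest values of 0.235 and 0.208 FPKM. Within this cluster Cxcl1 and Cxcl5 differed between the lines, Cxcl15 had no called difference, and Cxcl2 and Cxcl3 were too low to be tested.

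**Figure D3:**
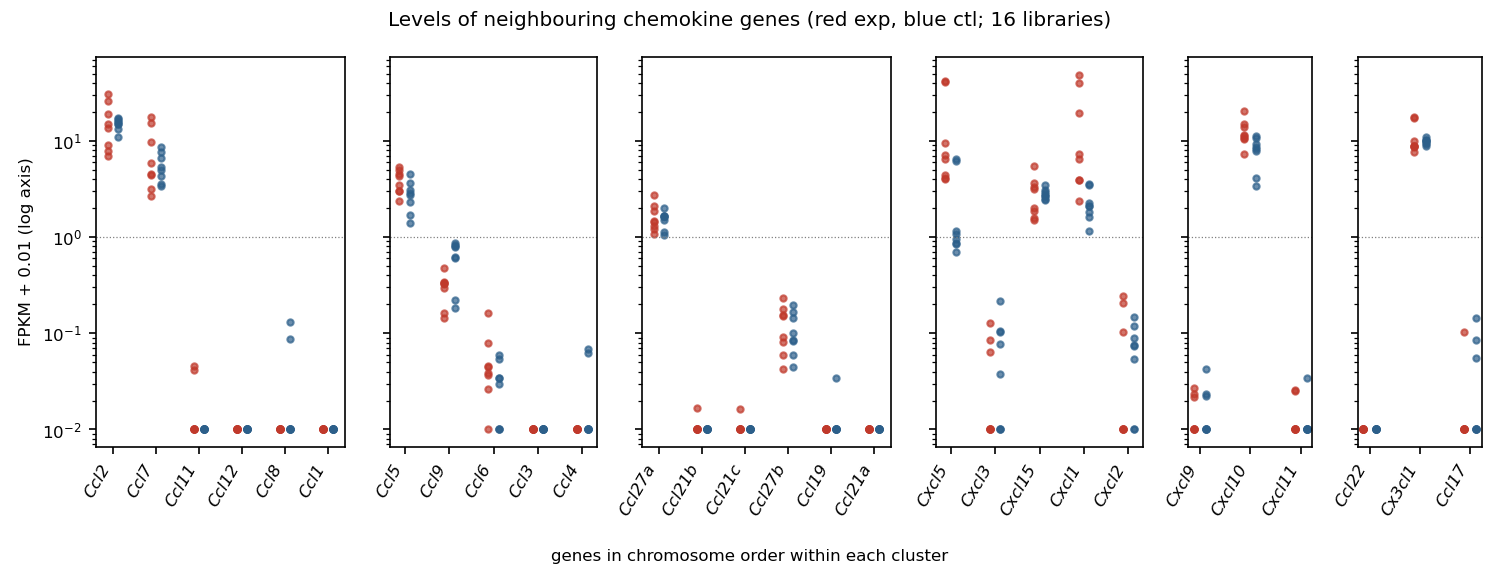
FPKM (log axis, with 0.01 added) of chemokine genes in chromosome order in 6 clusters, with each library as a point, exp in red and ctl in blue; the dotted line marks 1 FPKM. Each cluster holds genes above 1 FPKM beside genes at or near 0, as in the cluster of Cxcl5, Cxcl3, Cxcl15, Cxcl1 and Cxcl2.

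Ccl2 and Ccl7, monocyte attractants that act on CCR2, had no called difference between the lines over all days, or at day 16 with all 3 replicates. Ccl2 (gene ID 20296) was 19.2, 7.81, 6.89, 8.98, 13.7, 30.8, 25.7 and 15.01 FPKM in exp (day 0, 5, 9, 12, day 16 replicates 1 to 3, day 20). In ctl it was 15.8, 10.9, 14.95, 13.3, 14.9, 17.2, 16.8 and 16.0 FPKM. Exp was below ctl at days 5, 9, 12 and 20 and in day 16 replicate 1, and above it at day 0 and in day 16 replicates 2 and 3.

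The difference of Ccl2 was -0.07 ± 0.19 log2 over all days (95% interval -0.49 to 0.36; limma, adjusted p = 0.826) and 0.42 ± 0.28 at day 16 (adjusted p = 0.439). Without exp replicate 1 the day 16 difference was 0.75 log2 and passed (limma, adjusted p = 0.0125). That fit has unequal replicate sets in the lines. With replicates 2 and 3 only, in equal sets, the day 16 difference was 0.69 log2 and also called (limma, adjusted p = 0.00342). In replicate 1 it was -0.11 log2. Ccl2 was called in 2 of 16 alternatives. Ccl7 (gene ID 20306) ranged from 2.67 FPKM (exp day 12) to 17.6 (exp day 16 replicate 2) in exp, with a median of 5.22, and from 3.38 to 8.63 in ctl, with a median of 5.18. Its difference was 0.25 ± 0.21 log2 over all days (limma, adjusted p = 0.392) and 0.66 ± 0.40 at day 16 (adjusted p = 0.387). Without exp replicate 1, again with unequal replicate sets, the day 16 difference was 1.11 (limma, adjusted p = 0.0238). With replicates 2 and 3 only, in equal sets, it was 0.93 log2 and also called (limma, adjusted p = 0.000632). In replicate 1 it was 0.12 log2. Ccl7 was called at day 16 in 2 of 16 alternatives.

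Ccl2 (chr11:81849073-81850955) and Ccl7 (chr11:81859214-81861027) open a cluster of 6 genes on mm9. Of the other members, Ccl1 and Ccl12 were listed at 0 in all 16 libraries, and Ccl8 and Ccl11 each had a value above 0 in 2 libraries. The eosinophil attractant Ccl11 and the monocyte attractants Ccl8 and Ccl12 thus gave almost no reads beside a level of 15.5 FPKM for Ccl2.

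Cxcl10 (gene ID 15945, chr5:92775664-92777915 on mm9), an interferon-inducible ligand of CXCR3 on T cells, was higher in exp over all days, by a margin that rested on day 16. Its FPKM in exp was 15.1, 10.8, 7.24, 11.3, 20.2, 10.4, 11.5 and 14.0, and in ctl 10.7, 11.2, 8.25, 8.68, 7.87, 3.38, 4.08 and 9.24. Exp was above ctl at day 0, below it at days 5 and 9 and above it from day 12, and the 3 replicates of each line at day 16 did not overlap.

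Over all days the difference of Cxcl10 was 0.63 ± 0.23 log2, just inside the threshold (limma, adjusted p = 0.0464). Over 23 alternatives it was called in 8, and without day 16 it was 0.23 log2 (adjusted p = 0.18). At day 16 it was 1.31 ± 0.34 log2 (limma, adjusted p = 0.0865), and with the replicate block this was called (adjusted p = 0.00443), as it was in replicates 2 and 3 only (0.000112). Within the sets of replicates the day 16 difference was 1.26 log2 in replicate 1 and 1.34 in replicates 2 and 3. Cxcl10 shares 133 exon bases (8.8%) with Art3 on the other strand, which did not exceed 0.0349 FPKM.

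Ccl5 (gene ID 20304, chr11:83339280-83344020 on mm9), a T cell and monocyte attractant that is induced by interferon and NF-kappaB signals, was 2.36, 3.01, 5.00, 4.35, 5.36, 3.02, 3.47 and 4.498 FPKM in exp. In ctl it was 3.64, 4.56, 2.73, 3.08, 2.86, 1.37, 1.67 and 2.28 FPKM. Exp was below ctl at days 0 and 5 and above it from day 9. At day 16 all 3 exp libraries were above all 3 ctl libraries. Its level rested on 25 to 85 reads per library.

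The difference of Ccl5 was 0.39 ± 0.19 log2 over all days (limma, adjusted p = 0.125). At day 16 it was 0.74 ± 0.25 log2, which limma did not call (adjusted p = 0.153) but did with the replicate block (0.0212) and in replicates 2 and 3 only (0.00137). The CXCR3 ligands Cxcl9 and Cxcl11 flank Cxcl10 within 44.2 kb on chromosome 5 of mm9. Each was listed at 0 in most libraries, and neither reached 1 FPKM in any.

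**Figure D4:**
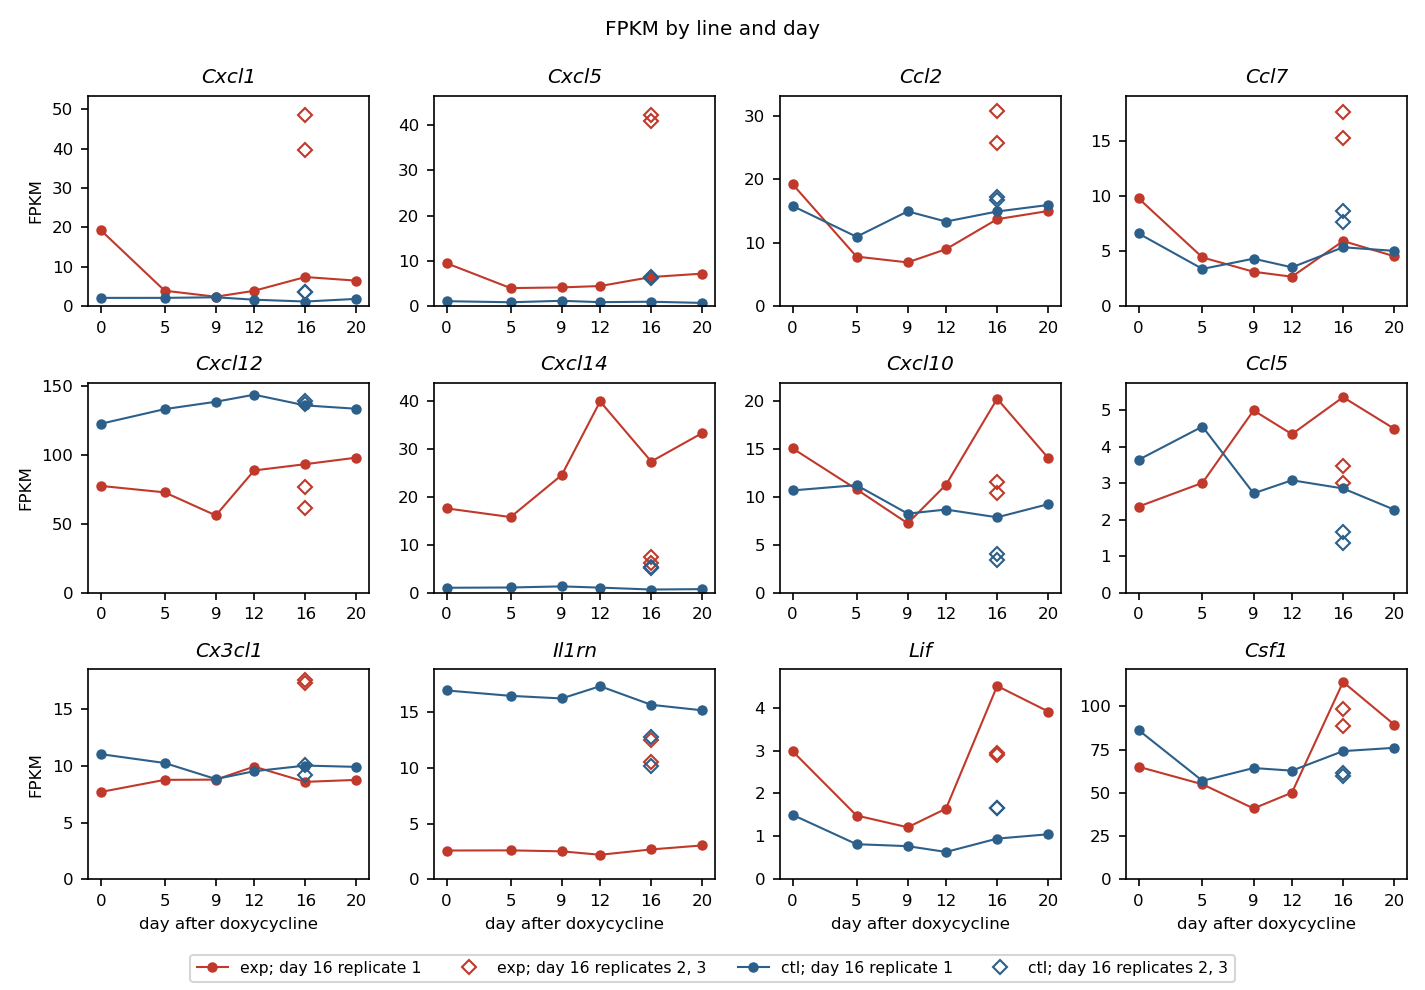
FPKM of 12 genes by day after doxycycline in exp (red) and ctl (blue); lines join single libraries with replicate 1 at day 16, and open diamonds are day 16 replicates 2 and 3. Cxcl1 and Cxcl5 in exp reach about 40 FPKM or more only in the diamonds, Cxcl12 is lower in exp at every day, and Cxcl14 and Il1rn of the lines come together in the diamonds.

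Cxcl12 (gene ID 20315, chr6:117118553-117131385 on mm9) was lower in exp in every library. In exp it was 77.7, 73.0, 56.2, 88.9, 93.5, 76.7, 61.4 and 98.2 FPKM, and in ctl 123, 133, 139, 144, 136, 137, 139 and 134. Every exp library was below every ctl library, including at day 0.

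Over all days Cxcl12 differed by -0.81 ± 0.10 log2 (limma, adjusted p = 5.62e-05), and it was called in all 23 alternatives. At day 16 the difference was -0.85 ± 0.15 log2 (limma, adjusted p = 0.0322), a call that was lost when any library but exp replicate 1 was left out (adjusted p of 0.0551 to 0.136). The day 0 difference was -0.65 log2, with 1 library per line and no test. In a culture, fewer cells of a type and less RNA per cell cannot be told apart.

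Of 23 chemokine receptors only Ackr3, the atypical receptor that takes up CXCL12, was high enough to be tested, and it was lower in exp as well. Ackr3 ranged from 12.2 to 18.6 FPKM in exp and from 47.7 to 59.0 in ctl, so the groups did not overlap. Its difference was -1.74 ± 0.08 log2 over all days (limma, adjusted p = 1.17e-08) and -1.70 ± 0.13 at day 16 (adjusted p = 0.00174). Cxcr4, the signalling receptor of CXCL12, did not exceed 0.687 FPKM, and Cxcr2, the receptor of CXCL1 and CXCL5, was listed at 0 in 13 libraries.

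Cxcl14 (gene ID 57266, chr13:56390008-56397912 on mm9), a chemokine of skin and other epithelia, had the largest difference of the 16 genes over all days. In exp it was 17.6, 15.8, 24.5, 39.9, 27.4, 7.53, 6.29 and 33.3 FPKM. In ctl it was 1.04, 1.10, 1.33, 1.07, 0.675, 5.47, 5.25 and 0.758. All exp libraries were above all ctl libraries, but in day 16 replicates 2 and 3 the lines came close, since exp was at its lowest and ctl at its highest.

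The difference of Cxcl14 was 2.87 ± 0.45 log2 over all days (limma, adjusted p = 0.000525) and 3.72 without day 16 replicates 2 and 3 (adjusted p = 4.12e-06). At day 16 it was 1.57 ± 0.73 (limma, adjusted p = 0.273), made up of 4.08 in replicate 1 and 0.31 in replicates 2 and 3. The difference at day 0 was 3.19 log2, with no test.

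Markers of epithelial and mesothelial cells also differed between the lines, and they followed Cxcl14 in part of the libraries. Of 8 such markers 7 were tested, and 5 were higher in exp over all days, beside 19.2% of all genes tested. Among them was Krt18, by 3.27 log2 (limma, adjusted p = 0.000442). Cdh1 and Msln were not among the 5, and Msln was 15.3 to 131 FPKM in exp. At day 16, 1 of the 7 was called, higher in exp, beside 3.1% of all genes tested. The summed FPKM of the 8 markers was 62.6 to 757 in exp and 98.7 to 128 in ctl. In ctl the sum was mostly Msln, at 84.8 to 121 FPKM, while Upk3b did not exceed 0.611 and Krt18 0.282. In exp Upk3b was the largest part of the highest sums, at 455 in day 16 replicate 1 and 433 at day 20. Within exp it was 757 in day 16 replicate 1 and 677 at day 20, but 62.6 and 70.1 in day 16 replicates 2 and 3, the libraries in which Cxcl14 was lowest and Cxcl1 and Cxcl5 were highest. In other libraries the sum and Cxcl14 did not move together. The sum was 214 at exp day 12, where Cxcl14 was highest, and 119 at exp day 9, below the 233 of day 0, although Cxcl14 was higher at day 9. In ctl the sum, mostly Msln, was 117, 125 and 128 in day 16 replicates 1, 2 and 3, while Cxcl14 was 0.675, 5.47 and 5.25 FPKM. Epcam did not exceed 0.357 FPKM. The part of these markers in the chemokine values was not tested.

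The other 4 homeostatic or membrane-bound chemokines had no called difference over all days, or at day 16 with all 3 replicates. Cx3cl1 (fractalkine; gene ID 20312, chr8:97295909-97306323 on mm9), a membrane-anchored ligand of CX3CR1, was 7.71, 8.78, 8.80, 9.95, 8.60, 17.5, 17.3 and 8.77 FPKM in exp. In ctl it was 11.04, 10.3, 8.85, 9.54, 10.0, 9.24, 10.1 and 9.92. Only exp day 16 replicates 2 and 3 stood out, and the difference of Cx3cl1 over all days was 0.07 ± 0.15 log2 (95% interval -0.26 to 0.41; limma, adjusted p = 0.74).

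Without exp replicate 1, the day 16 difference of Cx3cl1 was 0.77 log2 (limma, adjusted p = 0.00247), against 0.46 ± 0.26 with it (adjusted p = 0.364). The replicate sets are unequal between the lines in that fit. With replicates 2 and 3 only, in equal sets, the difference was 0.79 log2 and also called (limma, adjusted p = 0.000105). In replicate 1 it was -0.20 log2. Cx3cl1 was called in 2 of 16 alternatives. Cxcl16 (gene ID 66102, chr11:70267485-70273486), a membrane-bound ligand of CXCR6, was 1.98 to 4.04 FPKM in exp and 1.66 to 2.98 in ctl. It differed by 0.19 ± 0.11 log2 over all days (limma, adjusted p = 0.207). Its exons overlap by 552 bases (18.3%) with Zmynd15 on the other strand, which was 0.358 to 1.32 FPKM, and without strand the reads of the overlap cannot be assigned.

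Ccl25 (gene ID 20300, chr8:4325210-4360020), a thymus and gut chemokine that acts on CCR9, was 1.15 to 2.09 FPKM in exp and 1.15 to 1.55 in ctl, with a difference of 0.16 ± 0.08 log2 (limma, adjusted p = 0.152). Ccl27a (gene ID 20301, chr4:41716340-41721120), a skin chemokine that acts on CCR10, was 1.07 to 2.70 in exp and 1.04 to 1.98 in ctl, with a difference of 0.05 ± 0.11 log2 (limma, adjusted p = 0.777). Both lay just above the 1 FPKM limit, and the values of Ccl27a are uncertain where its reads are shared with the near copy Ccl27b, listed at up to 0.224 FPKM.

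Of the gp130 cytokines, Lif (gene ID 16878, chr11:4157560-4172517 on mm9) was higher in exp. It was 2.98, 1.49, 1.21, 1.65, 4.502, 2.94, 2.90 and 3.91 FPKM in exp and 1.504, 0.821, 0.775, 0.640, 0.951, 1.66, 1.65 and 1.05 in ctl. On every day exp was above ctl, although the ranges over all days overlapped. The difference was 0.75 ± 0.12 log2 over all days (limma, adjusted p = 0.000571), called in all 22 alternatives. At day 16 it was 0.87 ± 0.20 log2 without overlap of the groups (limma, adjusted p = 0.06). Il6 did not exceed 0.236 FPKM, or 7 reads, in any library.

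Csf1 (gene ID 12977, chr3:107543966-107563387 on mm9) was higher in exp at day 16. In exp it was 65.1, 55.0, 41.0, 50.1, 114, 98.6, 88.5 and 89.5 FPKM, and in ctl 86.3, 57.0, 64.4, 62.8, 74.1, 61.4, 59.7 and 76.0. Exp was below ctl from day 0 to day 12 and above it at days 16 and 20. At day 16 the groups did not overlap and the difference was 0.62 ± 0.13 log2 (limma, adjusted p = 0.0472), which was called in 8 of 16 alternatives. It was 0.61 in replicate 1 and 0.62 in replicates 2 and 3. Over all days it was 0.08 ± 0.15 (95% interval -0.25 to 0.41; adjusted p = 0.704). Csf1r, the receptor of CSF1, did not exceed 0.152 FPKM.

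Il1rn (gene ID 16181, chr2:24192373-24207014 on mm9) was lower in exp over all days. It was 2.21 to 3.05 FPKM in 6 exp libraries but 12.4 and 10.5 in day 16 replicates 2 and 3. In ctl it was 16.9, 16.4, 16.2, 17.3, 15.6, 10.2, 12.7 and 15.1, with the lowest values in day 16 replicates 2 and 3. The lines therefore overlapped only in those replicates. The difference was -1.69 ± 0.31 log2 over all days (limma, adjusted p = 0.00156) and -2.26 without those replicates (adjusted p = 1.93e-07). At day 16 it was -0.72 ± 0.50 log2 (limma, adjusted p = 0.462), made up of -2.17 in replicate 1 and 0.01 in replicates 2 and 3.

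Receptors for these cytokines were measured more often than those of the chemokines. Of 9, 7 were tested, and over all days 3 were higher in exp, namely Lifr by 0.70 log2, Il11ra1 by 0.55 and Il1rap by 0.31, and 2 were lower, with differences of -0.67 for Il6ra and -0.61 for Il6st (limma). Lifr was also higher at day 16, by 0.80 ± 0.14 log2 (limma, adjusted p = 0.0313). Among 15 related cytokines, 6 were tested, and Il33 (2.30 log2), Ctf1 (0.58) and Tslp (0.56) were higher and Il34 (-0.74) lower in exp over all days. The shares over all genes are those given above. Il33 in exp was 0.469 and 0.487 FPKM in day 16 replicates 2 and 3 and 5.15 to 11.3 in the other libraries. In ctl it did not exceed 0.252. Il1b, Csf2 and Ifng were listed at 0 in all 16 libraries and Tnf in 14.

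Day 16 replicates 2 and 3 against replicate 1 are given as a description, since these sets are not groups of the study. In exp, 4 of the 16 genes were at least 1 log2 higher in both replicates than in replicate 1 (Ccl7, Cxcl1, Cxcl5 and Il1rn), which is 25%, beside 1.83% of 12533 genes, and Cxcl14 was at least 1 log2 lower, beside 2.58%. In ctl, 3 genes were higher (Cxcl1, Cxcl5 and Cxcl14), which is 18.8%, beside 0.782%, and none was lower, beside 0.551%. Cxcl1 and Cxcl5 were higher in both lines, 12.5% of the 16, beside 0.215% of all genes.

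The mean of replicates 2 and 3 over replicate 1 was 5.98-fold in exp and 3.05-fold in ctl for Cxcl1, and 6.49-fold and 6.66-fold for Cxcl5. Cxcl10 and Ccl5 went the other way in both lines, at 0.542 and 0.474 for Cxcl10 and 0.605 and 0.532 for Ccl5. Cxcl14 went in opposite directions, at 0.252 in exp and 7.94 in ctl. The median shift of the 16 genes was 0.05 log2 in exp and 0.14 in ctl, beside 0.03 and 0.02 over all genes, so the set did not move as a whole.

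**Figure D5:**
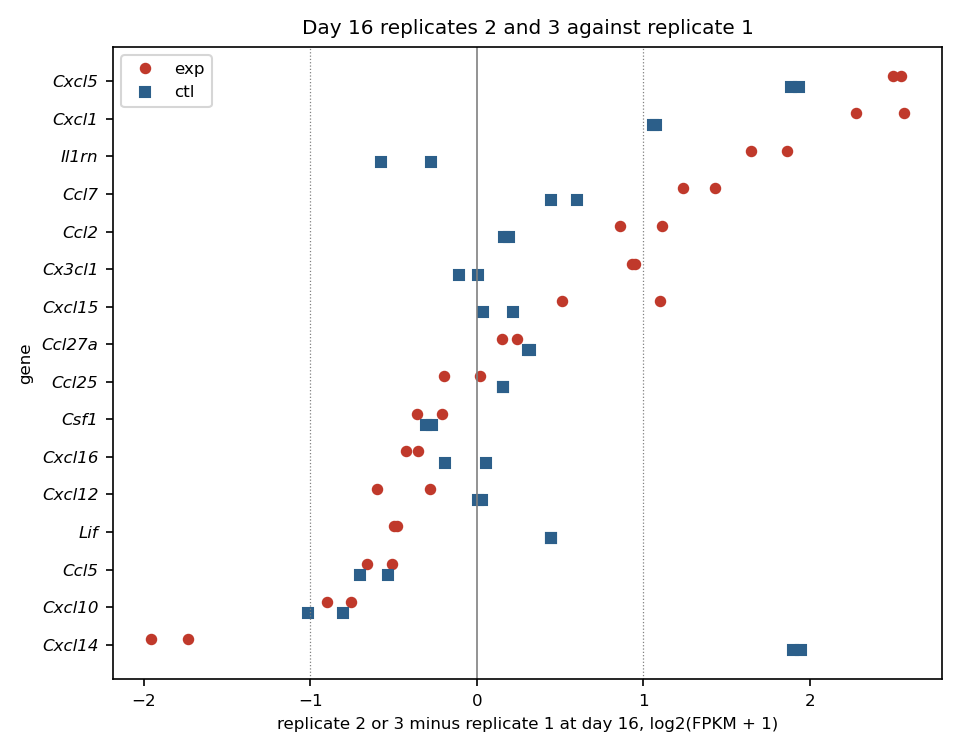
Day 16 replicates 2 and 3 minus replicate 1, in log2(FPKM + 1), for each described gene in exp (red circles) and ctl (blue squares); dotted lines mark a change of 1. Cxcl5 and Cxcl1 lie past 1 in both lines, and Cxcl14 and Il1rn lie on opposite sides of 0 in the lines.

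With time after doxycycline, none of the 16 genes passed a test. The change of the difference between the lines over 20 days was called by limma for 0 of 16 genes, beside 0.207% of 12559, with 4 at an unadjusted p under 0.05, and voom on the recovered reads called 0 as well, also with 4. Those 4 were Ccl5 (1.43 ± 0.44 log2; limma, adjusted p = 0.26), Csf1 (1.05 ± 0.39; 0.35), Cxcl15 (1.22 ± 0.45; 0.353) and Cxcl16 (0.73 ± 0.30; 0.393). The median of the 16 genes was 0.68 log2, with 13 above 0, beside -0.06 over all genes.

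Slopes within each line passed no test either. In exp 0 of 16 were called, beside 4.95% of all genes, with 3 at an unadjusted p under 0.05, which were Cxcl15 (0.95 log2 per 20 days; limma, adjusted p = 0.077), Csf1 (0.95; 0.13) and Ccl27a (-0.66; 0.0852). In ctl 0 were called, beside 0% of all genes, with Ccl5 (-0.87 log2) alone at an unadjusted p under 0.05. The voom fit called none of the 16 in either line. The wide intervals allow changes of several fold, as for Cxcl1 in exp, from -1.66 to 3.30 log2 per 20 days.

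Genes of the pathways that control chemokines were counted from lists. Of all genes tested, 35.9% were called over all days (19.2% higher and 16.7% lower in exp), and 3.1% were called higher at day 16. All 5 NF-kappaB subunits were tested, and 4 were lower in exp over all days (differences of -0.37 for Nfkb1, -0.55 for Nfkb2, -0.35 for Rel and -0.26 log2 for Rela; limma), while none was called at day 16. Of 18 NF-kappaB feedback and target genes, 15 were tested, 3 were higher in exp over all days (Vcam1 by 1.43, Nfkbia by 0.24 and Sod2 by 0.19 log2) and 2 lower (-0.56 for Nfkbie and -0.69 for Ptgs2). Of 10 interferon-inducible genes, 9 were tested and 8 were higher in exp at day 16, among them Isg15 by 2.57 ± 0.09 log2 (limma, adjusted p = 0.000124). Of the 9, 4 had a called change of the difference over time, beside 0.207% of all genes tested. Over all days 7 were higher and 1 lower. The lower gene was Gbp2, at 0.838 to 3.58 FPKM in exp and 3.26 to 10.4 in ctl, and it was not among the 8 at day 16. Of the interferon-inducible chemokines, Cxcl10 had 1.31 log2 at day 16 and Ccl5 0.74, neither called there with all 3 replicates and no block.

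The 27 genes not described were below 1 FPKM in every library. Of these, 9 were listed at 0 in all 16 libraries: Ccl1, Ccl3, Ccl12, Ccl21a, Ccl22, Ccl24, Ccl26, Ccl28 and Cxcl13. Another 18 were detected at least once, led by Ccl9 with up to 0.851 FPKM, the highest value outside the described set. On the other side of the limit, Cxcl5 and Lif reached 1 FPKM in the fewest libraries, 12 of 16.

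Among the low genes, Ccl20, the ligand of CCR6, was 0.0626 to 0.501 FPKM in exp and 0 to 0.0778 in ctl, where 6 of 8 libraries were listed at 0. It gave at most 15 reads per library and did not pass the filter on low values. Without that filter it was higher in exp by 0.37 log2 over all days (limma, adjusted p = 0.000621) and by 0.54 at day 16 (adjusted p = 0.00159). Ccl9 was then lower in exp over all days, with a difference of -0.30 log2 (limma, adjusted p = 0.0497). Both were named after these values were seen.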

How the data were processed

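The authors deposited 1 file of FPKM values for each of the 16 mouse libraries, and these values were analysed. The submitters' processing notes name mm9 and Bowtie2 2.2.3; for the counting tool, annotation and strand, nothing is given in the sources used here. A gene name table gave a symbol for 24416 of the 24485 gene IDs. Gene coordinates are 1-based and come from a GENCODE annotation on the same assembly, matched by symbol.

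Since 1 read is worth a fixed step of FPKM for a given gene and library, whole reads could be recovered from the deposited FPKM for all 18966 genes with reads in at least 2 libraries, to within 0.000664 read. Recovered depth was 18121520 to 42486438 reads in genes per library. It limits precision most for genes with few reads, and a listed 0 allows an expectation of up to 3 reads if only counting error is considered.

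The main tool was limma 3.58.1 (R 4.3.3, statmod 1.5.0) on log2(FPKM + 1) with a pseudocount of 1, with trend and robust empirical Bayes. Genes entered a fit if their FPKM averaged 1 or more over its libraries. Tests were two-sided and adjusted by Benjamini-Hochberg over all genes tested, at 0.05. Differences on this scale understate changes of low genes. All 16 described genes passed the filter in each fit, and none of the other 27 did. The fits were exp against ctl at day 16 (6 libraries), exp against ctl with day as a factor (16 libraries), its change per 20 days, and the slope in each line from a joint fit. The fits were tested on simulated data.

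Same-numbered day 16 replicates of the lines deviated together (correlations of 0.38, 0.27 and 0.33 for replicates 1, 2 and 3), so the number was also fitted as a block. Exp replicate 3 correlated more with ctl replicate 2 (0.40) than with ctl replicate 3. Replicates 2 and 3 of a line differed by more than counting noise (chi-square per gene of 10.4 in exp and 4.37 in ctl), so each was kept as a library.

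Named genes are the members and genes picked from the pathway and marker lists. Some of these passed a test or were among the 3 highest means of their list, but not every such gene is named. Others, such as Cxcr4, Cxcr2, Il1b, Tnf, Epcam and Ptprc, are named for their low levels. The members and lists were chosen with earlier results of these data known. Alternatives were other pseudocounts, filters and scalings, limma without trend and robust, voom on recovered reads, the block, and each replicate and day left out.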

Additional observations from a re-analysis of the deposited data

Results flagged for a closer look

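In 4 of the 16 described genes, day 16 replicates 2 and 3 lay on opposite sides of replicate 1 in the lines, with both replicates of exp moving one way and both of ctl the other, as did 22.2% of 12533 genes. The shift in exp less the shift in ctl was -3.77 log2 for Cxcl14, 2.18 for Il1rn, -0.93 for Lif and -0.46 for Cxcl12. The difference was not tested, since replicate 1 is a single library in each line.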

How the results depend on the processing

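Over all days, 6 to 8 genes of the set were called under each of 23 alternatives, 7 with the replicate block; Cxcl1, Cxcl5, Cxcl12, Cxcl14, Il1rn and Lif were called in every alternative in which they were tested, and Cxcl10 in 8. At day 16 the count of 2 became 6 with the replicate block (1023 of 12533 genes over all, against 765), 11 with replicates 2 and 3 only (an alternative chosen after seeing the data), and 1 at a mean FPKM of at least 5, with median-of-ratios rescaling, and without trend and robust; leaving out each library gave 0 to 7. For the change over time and the slope in ctl it stayed at 0. For the slope in exp it became 1 without a filter (Ccl20) and 1 without day 5 (Ccl27a, -0.85 log2, limma adjusted p = 0.0206). Over all genes, calls ranged from 197 to 4326 at day 16 (765 as reported), 0 to 49 for the change over time (26) and 9 to 1381 for the slope in exp (622), of which 27.5% were higher, against 62.6% with median-of-ratios rescaling and 51.3% with quantile normalization.

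Of 897 values of the results named in the text, 19 changed sign, none of them past the threshold; for the 40 slopes and changes over time at an unadjusted p above 0.05, which are left out of these, 63 of 892 values did, and none was called. Over all days these were Ccl27a with quantile normalization (-0.016 log2), without day 0 (-0.027) and without day 12 (-0.016); Ccl2 with voom (0.091), with a replicate left out (-0.18 to 0.0017), without day 9 (0.071) and without day 12 (0.00041); Cxcl15 without day 0 (0.017) and day 5 (0.0067); Cx3cl1 with a replicate left out (-0.0088 to 0.15, below 0 without exp replicate 2 or 3), without day 16 (-0.16) or day 16 replicates 2 and 3 (-0.16), and with replicates averaged (-0.044); and Csf1 without day 16 (-0.24) or its replicates 2 and 3 (-0.094), and with replicates averaged (-0.093). At day 16 they were Cxcl15 with a replicate left out (-0.011 to 0.54, below 0 without exp replicate 2) and Il1rn with replicates 2 and 3 only (0.0086). The causes were not tested. Low reads limit Ccl5, Ccl25 and Ccl27a, whose lowest libraries held 25, 33 and 38 reads. They also limit the called genes Cxcl5, Cxcl1 and Cxcl14, whose lowest libraries, all of ctl, held 33, 38 and 40.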
